A study of Mus musculus with 2 samples.

Results

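Transcripts annotated as targets of nonsense-mediated mRNA decay (NMD) were examined in total RNA from the mouse adrenal gland. The members were selected on measured values: every transcript that the annotation types as nonsense-mediated decay and that had a mean of at least 50 estimated counts over both libraries of the index-based tables. This gave 1706 transcripts in 1469 genes, out of 7186 annotated NMD transcripts and 141767 annotated transcripts of all types. Of the 5480 NMD transcripts below the minimum, 1942 were at 0 in both libraries.

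The study holds 2 libraries, 1 from each of 2 adult female B6CASTF1/J mice (F1 hybrids of the B6 and Cast strains) aged 8 to 10 months. Both belong to a single untreated group, so the design compares transcripts within a library and shows the spread between animals, with no treatment contrast. Replicate 1 is animal 1 and replicate 2 is animal 3; both carry the same donor code in the labels. Each library was made from 300 ng of total RNA of whole adrenal tissue with ERCC spike-ins, synthetic RNAs added in known amounts, and held about 41832100 and 35437600 estimated counts in the index-based tables. The gland's own genes were high in both: the 8 cortical markers (Star, Cyp11a1 and other steroid genes) had a median of 2998 TPM and the 5 medullary markers (Th, Dbh, Pnmt, Chga and Chgb) a median of 330 TPM, while the 3 kidney markers were listed at 0. In whole tissue, fewer cells of a type and less RNA per cell cannot be told apart.

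NMD is the surveillance pathway that degrades mRNAs whose reading frame ends too early. In mammals a stop codon that lies well upstream of an exon junction is recognised because the protein complex deposited at that junction is still present when the ribosome terminates, and the UPF and SMG proteins then mark the mRNA for decay. Splicing can route a normal gene into this pathway by including a so-called poison exon or by skipping an exon and shifting the frame, and genes for SR splicing factors are known for using it to limit their own expression. The levels described here are those of the RNA that remains in the tissue, so they measure neither how fast such RNA is made nor how fast it decays.

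The sequences below show where the reading frame of an NMD transcript leaves that of its gene's coding transcript and where it stops. The coding partner in each case is the protein-coding transcript of the gene with the highest mean tpm. Each line ends, for the NMD transcript, with its stop codon in capitals, and the coding partner's line shows the same reading frame continuing. Sequences were read 5′ to 3′ from the GENCODE M21 transcripts. The first set shows poison exons of SR proteins, the splicing factors that bind exonic enhancers.
Srsf3-201: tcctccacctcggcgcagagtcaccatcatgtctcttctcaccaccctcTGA
Srsf3-202: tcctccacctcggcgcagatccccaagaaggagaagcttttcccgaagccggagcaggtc
Srsf7-203: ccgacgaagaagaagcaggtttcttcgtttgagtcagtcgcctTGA
Srsf7-208: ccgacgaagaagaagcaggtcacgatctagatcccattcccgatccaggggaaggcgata
Srsf6-201: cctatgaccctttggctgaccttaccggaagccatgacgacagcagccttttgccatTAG
Tra2a-202: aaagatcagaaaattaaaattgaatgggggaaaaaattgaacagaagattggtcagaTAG
Srsf3-201 shares 341 coding bases with Srsf3-202 and stops 34 bases after entering its extra exon, at chr17:29039485-29039487 (mm10, plus strand). Srsf7-203 shares 386 coding bases with Srsf7-208 and stops 28 bases into its extra exon. For Srsf6-201 and Tra2a-202 only the last 60 coding bases are printed, since 152 and 144 bases separate the departure from the stop codon.

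The second set shows frames broken by skipped exons. Clk1 encodes a kinase of SR proteins, and Dnajc15 a co-chaperone of the inner mitochondrial membrane.
Clk1-210: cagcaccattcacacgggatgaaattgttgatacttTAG
Clk1-201: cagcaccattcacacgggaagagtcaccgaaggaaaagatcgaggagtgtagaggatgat
Dnajc15-201: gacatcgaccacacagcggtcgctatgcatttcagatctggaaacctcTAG
Dnajc15-202: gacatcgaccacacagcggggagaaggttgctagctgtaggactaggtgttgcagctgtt
Clk1-210 lacks a 91-base exon and stops 21 bases past the departure, and Dnajc15-201 lacks a 52-base exon and stops 33 bases past it.

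The third set shows how few bases at a splice site can separate the frame of an NMD transcript from that of its coding partner. Ppia encodes cyclophilin A, Ndufa3 a subunit of respiratory complex I, and Sec22b a SNARE protein of the early secretory pathway.
Ppia-201: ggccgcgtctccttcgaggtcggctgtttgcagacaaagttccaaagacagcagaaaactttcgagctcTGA
Ppia-202: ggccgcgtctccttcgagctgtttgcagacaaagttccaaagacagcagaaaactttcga
Ndufa3-204: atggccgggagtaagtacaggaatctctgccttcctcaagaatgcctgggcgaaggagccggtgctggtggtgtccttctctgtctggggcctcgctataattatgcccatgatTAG
Ndufa3-201: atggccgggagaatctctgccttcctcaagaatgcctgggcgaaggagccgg
Sec22b-204: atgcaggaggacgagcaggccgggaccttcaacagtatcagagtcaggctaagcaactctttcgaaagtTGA
Sec22b-201: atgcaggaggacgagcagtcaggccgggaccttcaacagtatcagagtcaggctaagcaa
Ppia-201 gained 5 bases and Ndufa3-204 gained 10 bases at a shifted splice site, whereas Sec22b-204 lost 4 bases.

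The fourth set shows 3 genes whose products matter to this gland or to redox and endoplasmic reticulum function. Mrap encodes the accessory protein that the ACTH receptor needs to reach the cell surface, Th encodes tyrosine hydroxylase, the rate-limiting enzyme of catecholamine synthesis, and Selenok encodes a selenoprotein of the endoplasmic reticulum.
Mrap-202: agctgaaagccaacaagctgTGA
Mrap-201: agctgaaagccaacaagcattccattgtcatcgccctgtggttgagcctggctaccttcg
Th-203: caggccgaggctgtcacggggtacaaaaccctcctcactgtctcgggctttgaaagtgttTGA
Th-201: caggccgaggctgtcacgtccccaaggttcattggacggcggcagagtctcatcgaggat
Selenok-203: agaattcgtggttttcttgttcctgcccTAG
Selenok-201: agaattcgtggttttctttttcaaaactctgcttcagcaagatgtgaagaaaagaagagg
Mrap-202 stops 5 bases into an 85-base extra exon, Selenok-203 stops 13 bases into a 63-base extra exon, and Th-203 stops 45 bases past a shifted splice site.

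A stop codon was annotated in 1705 of the 1706 members and was TGA in 944, TAA in 387 and TAG in 374. The distance from the stop codon to the last exon junction had a median of 560 bases (quartiles 250 and 1209), and it was at least 50 bases in 1700 members. That distance is close to a definition of the annotation type, so it describes the members and is no finding about them. The coding region had a median of 33.5% of the length of the coding partner's. In 326 members the annotation lacks the start of the coding region, so that length is incomplete for them.

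Of the 1676 members in genes with a coding transcript, 626 differed from the coding partner by a shifted splice site, 562 by a skipped exon, 513 by an extra exon and 110 by a kept intron, with some members in several classes. A further 239 used another first exon and 283 another last exon. An extra exon held the stop codon in 321 members. Splicing was compared inside the span that a member and its partner share, so their ends can differ in the groups that follow. Among 205 members whose sole splicing difference was 1 extra exon, the exon had a median of 105 bases. Of these exons, 148 were not a multiple of 3 bases long, and 51 of the 57 that were held the stop codon themselves. Among 236 members whose sole splicing difference was 1 skipped exon, 230 of the skipped exons were not a multiple of 3 bases long. A single shifted site was the sole splicing difference in 194 members and added bases in 105 of them and removed bases in 89. Of these shifts, 166 were not a multiple of 3, 23 were under 10 bases and 8 were exactly 4 bases.

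**Figure D1:**
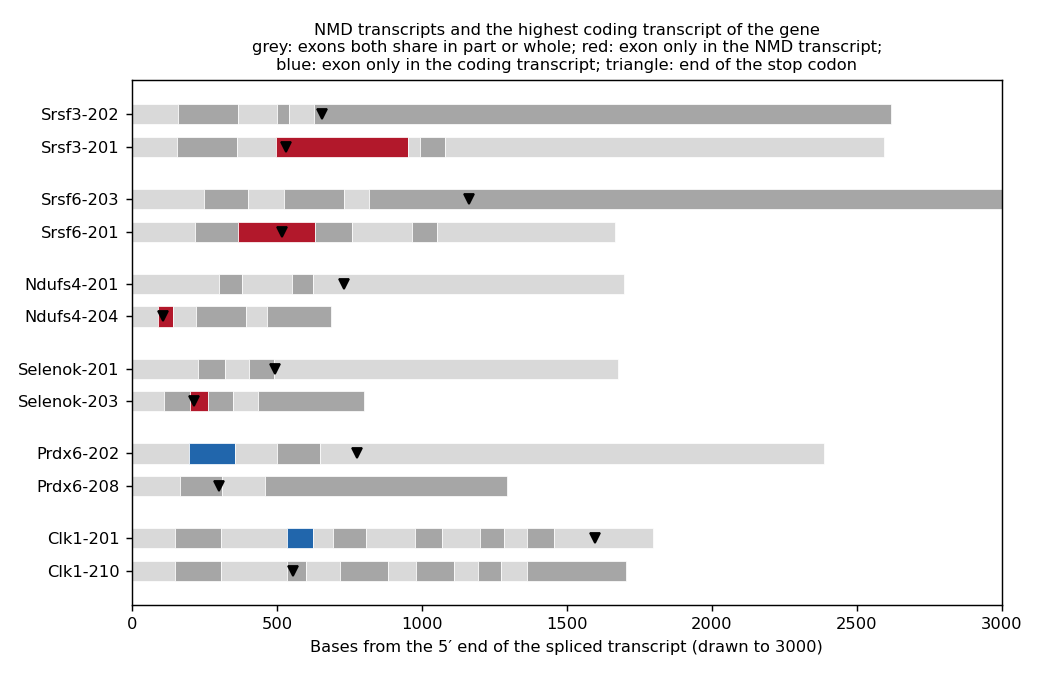
Spliced maps of 6 NMD transcripts and their coding partners, drawn from the 5′ end in bases, with exon boundaries as shade changes and the end of the stop codon as a triangle. The extra exons of Srsf3-201 (456 bases) and Srsf6-201 (268 bases) and those of Ndufs4-204 and Selenok-203 carry the stop codon, while Prdx6-208 lacks a 157-base exon and Clk1-210 a 91-base exon of the coding partner.

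The index-based tables estimate transcript levels from the reads and a transcript index, and the alignment-based tables estimate them from an alignment to the transcriptome. In both, TPM is a level scaled to the library total and corrected for transcript length. The members together held 0.904% and 0.927% of all index-based tpm in replicates 1 and 2. Their mean levels ran from 0.0698 to 400.6 tpm with a median of 1.83, and 184 members reached 10 tpm while 556 were below 1 tpm. All NMD transcripts made up 3.17% and 3.41% of the NMD and protein-coding tpm combined. In the alignment-based tables the shares were 2.95% and 3.11%. Most of these transcripts were therefore low beside the coding output of the gland, and a small group was not.

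For each gene the NMD share is the summed level of its NMD transcripts as a percent of its NMD and coding transcripts together. The share could be formed for 1439 of the 1469 genes. The other 30 genes had no coding transcript, and all 30 members in them carry the annotation's tag for readthrough transcripts, which join neighbouring genes. The median share was 22.3% in the index-based table (library medians 21.6% and 22.4%) and 15.2% in the alignment-based table (library medians 15.1% and 15.2%). Both animals gave much the same share: the median absolute difference between them was 4.02 percentage points, and the shares correlated across genes with Pearson's r of 0.903 (n = 1439 genes that share the same 2 libraries and annotation).

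The share was at least 50% in both animals for 210 member genes in the index-based table, beside a background of 7.6% of the 4198 genes with an NMD and a coding transcript. It was at least 50% for 175 member genes in the alignment-based table, beside a background of 6.01% of 4075 genes. Members had to pass a minimum on the NMD count itself, so a higher count than the background follows from the choice of members and nothing is read from it. In all, 136 genes passed in both tables, which is 64.8% of the 210 and 77.7% of the 175. An NMD transcript was the highest transcript of its gene in both animals for 227 member genes in the index-based table and for 185 in the alignment-based table. This count did not require that transcript to be a member or to be the same one in both animals. The counts of 136, 227 and 185 were taken among member genes only and have no background beside them. They also depend on the choice of members, so nothing is read from their size.

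The highest of these 136 genes by NMD level included genes of metabolism, protein folding and signalling. Ppia-201 was the highest member of all. The gene's NMD transcripts stood at 398 and 403 tpm in replicates 1 and 2, and its coding transcripts at 129.8 and 117 tpm. Ppia had a share of 76.5% ± 1.45 (SD, n = 2), and in the alignment-based table the share was 99.6%, with 437 and 444 TPM for NMD and 2.23 and 1.32 TPM for coding. Neither animal's NMD value overlapped its coding values in either table. The 2 frames differ by 5 bases, and 64.2% of the 31-base stretches of Ppia-201 also occur in annotated transcripts of other genes, so its level is uncertain.

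Ndufa3 had 2 members. Its NMD transcripts together stood at 235 and 199.7 tpm, of which Ndufa3-204 held 208 and 177 tpm, and the coding transcripts at 1.07 and 1.09 tpm. The share was 99.5% ± 0.0622. In the alignment-based table the share was 95.9%, with 228 and 206 TPM against 12.3 and 6.39 TPM. No 31-base stretch of Ndufa3-204 occurs in another gene. Its stop codon lies 56 bases before the last junction, close to the 50-base limit. A second complex I gene showed the same order: Ndufs4, whose product is a subunit near the NADH-oxidising arm, had NMD transcripts at 59.6 and 50.2 tpm against coding transcripts at 4.30 and 4.44 tpm. Its share was 92.6% ± 0.985 and 74.1% in the alignment-based table.

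Prdx6 encodes a peroxiredoxin that reduces hydrogen peroxide and phospholipid hydroperoxides. Its NMD transcript Prdx6-208 stood at 145.8 and 149.9 tpm and its coding transcripts at 14.0 and 12.2 tpm, a share of 91.9% ± 0.860. The alignment-based table gave 154 and 163 TPM against 38.1 and 38.6 TPM and a share of 80.5%. In its column for the percent of a gene's expression held by each transcript (IsoPct), Prdx6-208 held 58.4% and 57.1%. That column counts all transcripts of the gene, including non-coding ones, in its total. Rpl27a, a protein of the large ribosomal subunit, had NMD transcripts at 182 and 184 tpm against 18.2 and 17.9 tpm. The alignment-based values for Rpl27a were lower, 42.6 and 43.0 TPM against 29.4 and 28.9 TPM, and both tables put NMD above coding in each animal. Of the 31-base stretches of its member Rpl27a-205, 48.6% also occur in other genes, so its level is uncertain.

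Signalling and membrane genes followed. Ppp1cb, a catalytic subunit of protein phosphatase 1, had a share of 73.9% ± 0.548 and an alignment-based share of 71.3%, and Ppp2r2a, a regulatory subunit of protein phosphatase 2A, had 60.4% ± 0.619 and 57.1%. Mapk13, a p38 kinase, had 3 members and a share of 57.7% ± 3.01. Tkt encodes transketolase of the pentose phosphate pathway, and its NMD transcript stood at 65.2 and 46.0 tpm against 15.1 and 9.49 tpm. The share of Tkt was 82.0% in the index-based table and 56.9% in the other. Dnajc15 reached 88.7% ± 0.353 with 46.7 and 46.4 tpm for its skipped-exon transcript, and Sec22b reached 61.7% ± 3.35. Mtch2, a protein of the outer mitochondrial membrane, reached 80.6% ± 2.84. H2-Eb1, a class II MHC chain of antigen-presenting cells, reached 84.9% ± 0.271 with 37.6 and 45.6 tpm for NMD against 6.80 and 7.99 tpm for coding. Chpt1, which makes phosphatidylcholine, was the closest to the limit at 52.4% ± 3.11, and its NMD and coding levels fell side by side at 23.7 and 23.5 tpm in replicate 2.

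**Figure D2:**
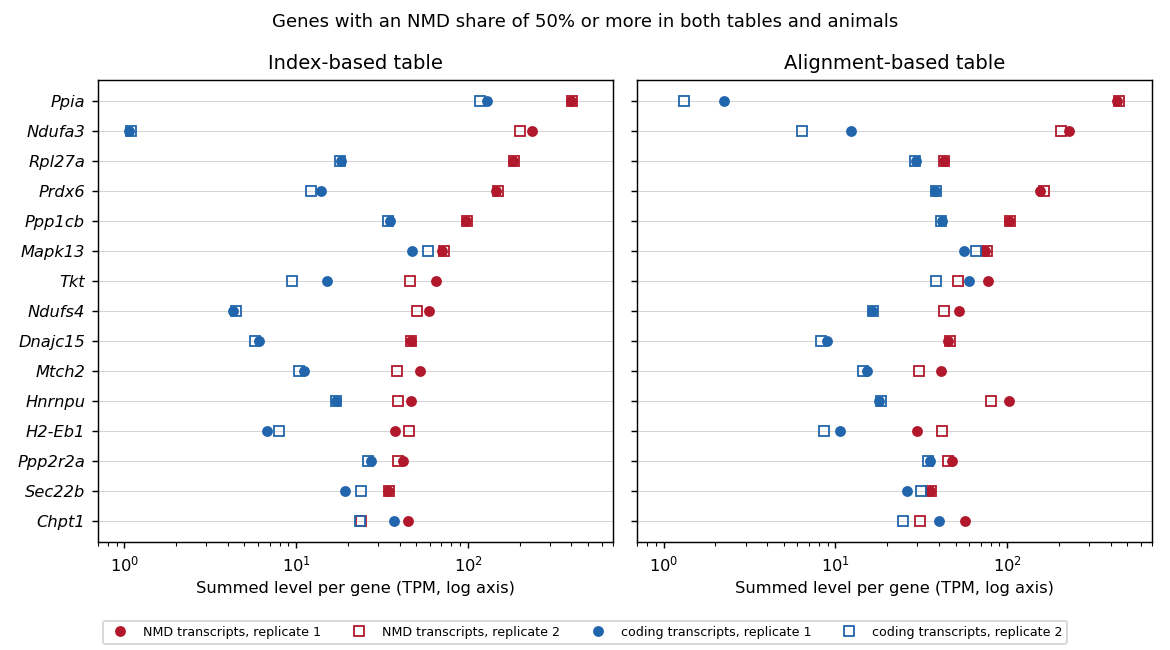
Summed NMD levels (red) and summed coding levels (blue) of the 15 genes with the highest NMD level among those at a share of 50% or more in both tables and both animals, on a log axis in TPM, with replicate 1 filled and replicate 2 open. NMD lies to the right of coding in every gene, from Ppia at 398 and 403 tpm down to Chpt1, and the gap between the 2 animals of a kind differs between genes.

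Over all 136 genes the median NMD level was 8.92 tpm, 62 genes were at 10 tpm or more and 10 were below 1 tpm. They held 187 members, of which 69 had a shifted site, 56 a skipped exon and 33 a stop codon in an extra exon. In 79 of the 187 no base lay outside the exons of the gene's coding transcripts. The members were also shorter than their partners: a member had a median of 82.5% of the partner's length over all genes and 65.5% in the 136. The TPM correction divides by length, and taking the shares on counts moved the overall median from 22.3% to 15.4%. On counts, 161 genes were at a share of 50% or more in both animals, against 210 on tpm.

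The largest shares of all were mostly of another kind. Usp50, Vmn2r114, Gm45140, Ces2f, Vmn1r216 and Vmn2r20 were at 100% or rounded to it because their coding transcripts were at or near 0 in both libraries. Only Usp50, a deubiquitinase-like gene, had more than 1 tpm in that group, with 9.39 and 9.68 tpm. In the alignment-based table Usp50-203 was listed at 0 and 0.03 TPM. The vomeronasal receptor genes Vmn2r114, Vmn1r216 and Vmn2r20 had NMD levels between 0.0524 and 0.375 tpm and were listed at 0 in the alignment-based table. Gm45140-202, Gm49322-202 and Vmn1r216-203 carry the readthrough tag. Ndufa3 came next, followed by Tbca, Bnip1, Hyi, Mnat1, Adhfe1, Kcna6 and Rbm20.

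Within that group the genes held up unequally in the other table. Adhfe1, an alcohol dehydrogenase that oxidises 4-hydroxybutyrate, had 22.3 and 19.4 tpm in 3 members against 1.30 and 1.29 tpm for coding, and its alignment-based share was 97.2%. Mnat1, the assembly factor of the CDK-activating kinase, had 94.6% ± 0.703 and 95.3%, and the splicing regulator Rbm20 had 93.3% ± 2.75 and 93.0% at under 1 tpm. Hyi had 95.2% and 71.6%. Bnip1, a SNARE of the endoplasmic reticulum, had 95.7% in the index-based table, yet Bnip1-202 was listed at 0 in both libraries of the alignment-based table.

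Among genes at 10 tpm or more, those for which the tables disagreed most included Tbca, Rpl14, Lgals1 and Pcnp. Tbca, a tubulin folding cofactor, had 48.1 and 47.7 tpm for Tbca-203 in the index-based table and was listed at 0 in the alignment-based one, where the coding transcripts stood at 75.9 and 78.7 TPM. Rpl14-205 stood at 184 and 172 tpm and was likewise listed at 0. Lgals1, which encodes galectin-1, had a share of 68.8% against 5.06%. Pcnp went the other way, with 7.64% in the index-based table and 95.0% in the other. The member Pcnp-206 itself stood at only 3.99 and 7.0 TPM of the 38.1 and 40.1 TPM of NMD RNA that the alignment-based table gave Pcnp, the rest being in NMD transcripts below the count minimum. Of these, Rpl14-205 has 71.5% of its 31-base stretches in other genes, Pcnp-206 has 48.2%, Tbca-203 has 28.9%, and Lgals1-202 has none.

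Over the 1433 genes with a share in both tables, Spearman's rho was 0.736 and Pearson's r 0.790. The median absolute difference was 6.59 percentage points, and the index-based share was the higher one in 979 genes. Of the alignment-based values, 1129 of the 1706 members had at least 50 expected counts and 133 were listed at 0 in both libraries. The difference between tables was smaller for members with long stretches of their own. The 619 members with at least 100 bases outside all coding transcripts of the gene had a median absolute difference of 3.67 points, and 3.23% of them were listed at 0. The 446 members with fewer such bases had 7.43 points and 10.3%, and the 605 members with none had 7.44 points and 9.75%, so the values were not graded below 100 bases. The first of these groups also had the lowest median share, 12.2% against 17.8% and 19.0%, and the part of that in the differences was not tested.

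**Figure D3:**
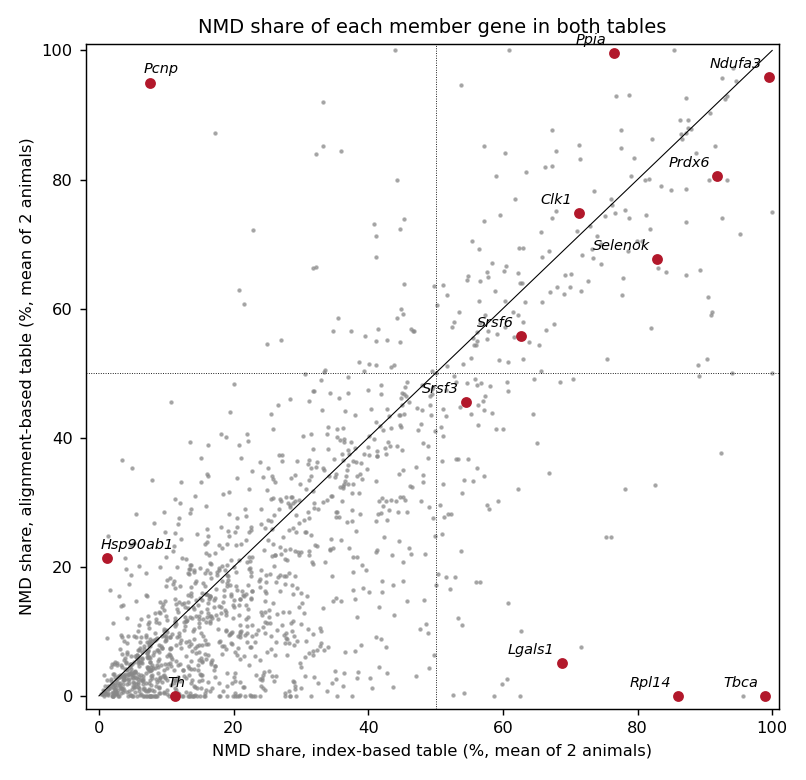
NMD share in percent of each member gene in the index-based table (horizontal) and the alignment-based table (vertical), as means of 2 animals, with the line of equality and dotted lines at 50%. Prdx6, Ndufa3, Clk1, Selenok and Srsf6 lie in the upper right, whereas Tbca, Rpl14 and Lgals1 lie on the lower edge and Pcnp in the upper left.

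SR proteins are the class for which poison exons are best known. Of 13 SR protein genes, 11 have an annotated NMD transcript and 8 had a member. In 6 of their 8 members the stop codon lay in an extra exon, beside 321 of 1676 members overall. Their median share was 21.8%, close to the 22.3% of all member genes. The list was chosen for this known mechanism, so its counts are a description. Over all genes with an NMD and a coding transcript, either above 0 in both animals, 1439 of 4198 had a member.

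Srsf6 stood highest. Srsf6-201 was at 34.0 and 27.9 tpm and the coding transcripts at 17.96 and 18.7 tpm, a share of 62.6% ± 3.93, and the alignment-based table gave 36.5 and 30.6 TPM against 26.3 and 26.8 TPM. NMD was above coding in each animal in both tables. Srsf3 was near an even split: Srsf3-201 was at 7.85 and 10.5 tpm against 6.87 and 8.34 tpm, a share of 54.5% ± 1.64, and the alignment-based share was 45.5%, so its order depends on the table. Tra2a had 26.9% ± 6.84, Srsf11 26.3% ± 3.82, Srsf4 17.4% ± 4.92 and Tra2b 9.71% ± 2.53. Srsf9 and Srsf7 were at the low end with 4.35% ± 0.694 and 3.00% ± 0.0790. The poison exon of Srsf7 printed above was thus present in a transcript at only 0.58 and 0.60 tpm, beside 19.0 tpm of coding RNA in both animals.

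Among hnRNP proteins, which bind nascent RNA, 15 of 28 genes have an annotated NMD transcript and 14 had a member. The median share of these 14 genes was 30.6%. Hnrnpu, a chromatin-associated RNA-binding protein, had 46.4 and 39.3 tpm for NMD against 17.1 and 17.1 tpm for coding, a share of 71.4% ± 2.38 and 83.2% in the alignment-based table. Its member Hnrnpu-206 carries the readthrough tag. Hnrnph3 had 57.6% ± 2.84 but 29.6% in the alignment-based table. Hnrnpll-203, which has its stop codon in an extra exon, gave Hnrnpll a share of 46.3% ± 5.81. Tardbp, which encodes TDP-43 and is known to limit its own mRNA, had 3 members and a share of 40.0% ± 4.36, with 32.5 and 32.8 tpm for NMD against 55.4 and 43.3 tpm for coding.

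Of 59 other splicing genes, 43 have an annotated NMD transcript and 31 had a member, with a median share of 17.2%. Clk1 had 10.2 and 16.3 tpm for Clk1-210 against 3.33 and 7.95 tpm for coding, a share of 71.3% ± 5.80 and 74.9% in the alignment-based table. Clk1-210 and coding RNA of the gene were both higher in replicate 2. The kinase gene Prpf4b had 74.6% ± 1.43 and 70.1%. Puf60 and Arglu1 had 54.2% and 54.0% in the index-based table, and 0.466% and 11.0% in the other. Ddx5, an RNA helicase, had one of the 10 highest members at 88.2 and 98.9 tpm, with a share of 36.2% ± 3.50.

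**Figure D4:**
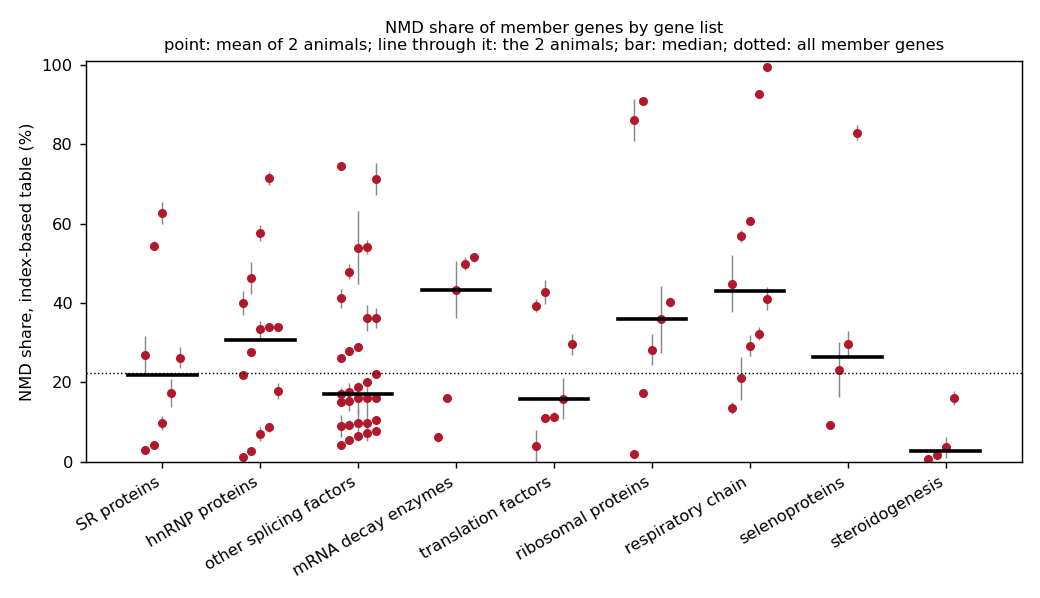
NMD share in percent (index-based table) of member genes in 9 gene lists, each point the mean of 2 animals with a line joining the 2 values, and a bar at the list median. Shares spread widely within each list, from 3.00% (Srsf7) to 62.6% (Srsf6) among SR proteins, and the 4 steroidogenic genes lie lowest with a median of 2.68%. A gene with more RNA can pass the count minimum at a smaller share, so nothing is read from the order of the lists.

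The mitochondrial respiratory chain had 10 member genes of 102, with a median share of 43.0% and an alignment-based median of 45.1%. Beside Ndufa3 and Ndufs4, Cyc1 (cytochrome c1 of complex III) had 60.7% ± 1.21 but 14.4% in the alignment-based table, and Ndufa10 had 56.8% ± 2.14 and 48.4%. Only 23 of the 102 genes have an annotated NMD transcript. Of 90 ribosomal protein genes, 18 have an annotated NMD transcript and 7 had a member. Their median share was 35.9%, and 4.87% in the alignment-based table. Rpl6, with Rpl6-208 at 121 and 132 tpm, had 40.3% in the index-based table and 2.72% in the other, and 86.8% of the 31-base stretches of Rpl6-208 occur in other genes. The iron-sulphur scaffold gene Iscu, the proteasome activator Psme1 and the elongation factor Eef1b2 also had members among the 10 highest: Iscu-205 at 93.0 and 96.7 tpm, Psme1-209 at 84.3 and 85.9 tpm and Eef1b2-206 at 69.3 and 81.5 tpm. Of these, Iscu-205 and Eef1b2-206 were listed at 0 in both libraries of the alignment-based table, and Psme1-209 stood at 35.9 and 36.5 TPM there.

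Of 24 selenoprotein genes, 6 have an annotated NMD transcript and 4 had a member. A selenoprotein mRNA reads a TGA codon as selenocysteine, and some of these mRNAs, though not all, are known targets of NMD when selenium is low. A coding partner can read through a stop codon in frame only as selenocysteine. Whether a member stops at such a codon could thus be asked only of the 4 members of selenoprotein genes. None of these members stopped at a codon that the partner reads as selenocysteine. Selenok-203 stood at 28.5 and 27.5 tpm against 6.70 and 4.89 tpm for coding, a share of 83.0% ± 2.78 for Selenok and 67.7% in the alignment-based table. Selenoi had 29.7% ± 4.55, Selenos 23.2% ± 9.77 and Selenoo 9.29% ± 1.50. Selenos-202 was listed at 0 in the alignment-based table.

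In the gland's own hormone pathways the annotation limited how many genes could have a member. Of 34 steroidogenic genes, 5 have an annotated NMD transcript and 4 had a member, beside the 1439 of 4198 genes given above. The median share of these 4 genes was 2.68%, and a gene with more RNA can pass the count minimum at a smaller share. Mrap was the highest, with NMD transcripts at 27.5 and 27.9 tpm against coding transcripts at 163 and 129 tpm, a share of 16.1% ± 2.41 and 8.01% in the alignment-based table. Dhcr7, which makes the last step to cholesterol, had 1.70% ± 0.647, and Fdx1, the electron donor of mitochondrial steroid hydroxylases, 0.641% ± 0.110. Of 26 chromaffin genes, 2 have an annotated NMD transcript and these 2 had a member. Th-203 stood at 28.5 and 21.4 tpm against 288 and 233 tpm for coding Th, giving Th a share of 11.3% ± 1.32, but Th-203 was listed at 0 in both libraries of the alignment-based table. Scg3, a granin of secretory granules, had 31.8% ± 5.87 and 9.62%. None of the 10 adipocyte markers has an annotated NMD transcript, so none could have a member.

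Genes of the pathway itself were measured in the gene tables. The 12 NMD factor genes (Upf1, Smg1 and others) had a median of 9.44 TPM, with Upf1 highest at 25.8 and 23.3 TPM, and the 9 exon junction complex genes had a median of 24.3 TPM. None of these NMD factor and junction complex genes differed by 2-fold between animals. Of the 12 factor genes, 3 have an annotated NMD transcript, and Smg1, which encodes the kinase of UPF1, was the sole one with a member. Smg1-204 stood at 2.29 and 2.64 tpm in the index-based table and was listed at 0 in the other. Among 14 decapping and exonuclease genes, 7 have an annotated NMD transcript and 5 had a member. Dis3, a catalytic subunit of the exosome, had a share of 51.5% ± 1.60, and 43.4% in the alignment-based table. Cnot1, the scaffold of the deadenylase complex, had 49.9% ± 2.33 and 24.8%.

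Between the animals, members were compared as log2 ratios of replicate 2 over replicate 1, with 0.1 added to tpm. With 1 library on each side there was no test. The median over members was 0.15, beside 0.09 over all 31423 transcripts at the same count minimum, 0.03 over coding transcripts and 0.45 over retained-intron transcripts. At least 2-fold higher in replicate 2 were 193 members, or 11.3%, beside a background of 7.11% of all transcripts. At least 2-fold lower were 114 members, or 6.68%, beside 4.28%. By type, the percents higher and lower were 5.72% and 4.76% for coding and 11.8% and 1.95% for retained-intron transcripts. For processed transcripts they were 9.17% and 4.61%, so a percent above the background was not particular to NMD members. Members called at this fold had a median of 85.6 estimated counts against 133 for all members. By the alignment-based values, 103 of the 193 and 70 of the 114 also passed 2-fold in the same direction. Scaling factors over all transcripts above 0 gave members a median of -0.015 with edgeR's TMM and -0.070 with DESeq2. Those factors held little or no depth correction, and all transcripts had -0.079 and -0.134. Factors over transcripts at the count minimum were chosen after the data were seen. With them the median of members was 0.07 with TMM and 0.06 with DESeq2, beside 0.007 and -0.001 for all transcripts.

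Within genes, NMD transcripts gained slightly on coding transcripts in replicate 2. The difference between the NMD and coding log2 ratios of a gene had a median of 0.10 over 1427 genes (above 0 in 57.5%) and 0.08 in the alignment-based table. The same difference was 0.38 for retained-intron transcripts over 3049 genes and 0.13 for processed transcripts over 1347 genes. The 110 members with a kept intron had a median ratio of 0.35, and the 1566 compared members without one 0.12. The replicate 2 library also held lower adipocyte and capsule marker levels: the 6 adipocyte markers summed to 946 TPM in replicate 1 and 475 TPM in replicate 2 (5 of 6 lower) and the 3 capsule markers to 103.8 and 65.9 TPM (3 of 3 lower). The 2 liver markers summed to 5.99 and 19.9 TPM. The part of any of these in the members' ratios was not tested.

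**Figure D5:**
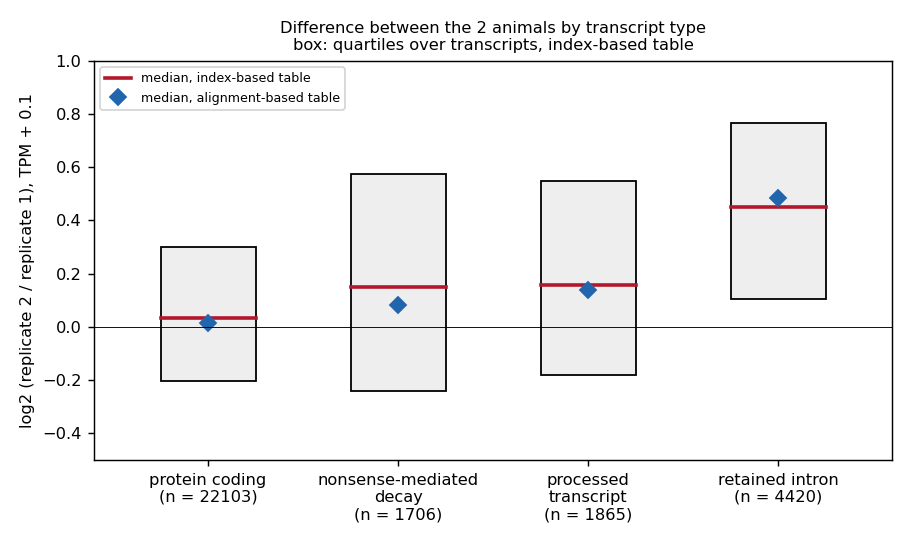
Log2 ratio of replicate 2 over replicate 1 (TPM with 0.1 added) by transcript type, with boxes for the quartiles over transcripts and a red median in the index-based table and a blue diamond for the alignment-based median. NMD members (0.15 and 0.08) lie between coding transcripts (0.03 and 0.02) and retained-intron transcripts (0.45 and 0.48).

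For 48 members the 2-fold difference was present in both tables and the deposited TPM bounds of the 2 libraries were apart. Of these, 35 were higher in replicate 2, or 2.05% of members beside a background of 1.99% of all transcripts under the same rule, and 13 were lower, or 0.762% beside 0.608%. Both shares were near the background. These bounds describe estimation within a library and no spread between animals. Lpl-203, an alternative transcript of lipoprotein lipase, was among the lower ones at 32.8 and 13.6 tpm, and coding Lpl transcripts stood at 67.8 and 36.3 tpm. Lipoprotein lipase is abundant in fat, and 5 of the 6 adipocyte markers were lower in the same library. Any link of these markers to the Lpl levels was not tested. Chpt1-205 stood at 4.13 and 0.256 tpm. Among those higher in replicate 2, Nrbp2-203, which keeps an intron, stood at 4.21 and 11.2 tpm while coding Nrbp2 stood at 38.1 and 32.4 tpm. Alas1-208 of the first enzyme of haem synthesis stood at 2.63 and 7.11 tpm. Nr4a2-206, from an ACTH-responsive nuclear receptor gene, had 0 and 106 estimated counts, while coding Nr4a2 stood at 2.03 and 7.56 tpm. Lpl, Chpt1, Nrbp2, Alas1 and Nr4a2 were chosen from the 48 after their values were seen.

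Most of the largest within-gene differences had an NMD or a coding level at or near 0 in 1 library. Tbrg4, Eif5, Thoc7, Faap20 and Ankhd1 had the largest differences toward replicate 2, between 4.91 and 5.85, and Plpp5, Tomm22, Slc6a6, 2700062C07Rik and Serpinb6b the largest toward replicate 1, between -6.47 and -4.26. For Eif5, a translation initiation factor, Eif5-205 stood at 0.0633 and 7.99 tpm in the index-based table but at 9.88 and 15.9 TPM in the other. For Slc6a6, the taurine transporter, Slc6a6-205 stood at 3.96 and 0 tpm but at 32.01 and 25.05 TPM. Neither gene had a level near 0 in either library of the alignment-based table.

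At the count minimum itself there was no gap. The 5 members just inside had means from 50.004 to 50.26 estimated counts (Tsc22d2-202, Rrnad1-208, Osgepl1-206, Kctd18-206 and Ccnl1-205). The 5 transcripts just outside had 49.86 to 49.99 (Tmem208-204, Polg2-203, Map4k2-222, Tsc22d1-213 and Nsun4-201). Ccnl1-205 shows how uneven such a mean can be, with 100.4 counts in replicate 1 and 0.0971 in replicate 2.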

How the data were processed

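Estimated counts and tpm per transcript were deposited in the index-based tables. Expected counts, TPM, the percent of a gene's expression held by each transcript (IsoPct), and lower and upper TPM bounds were deposited in the alignment-based tables, per the file headers. These counts are estimates with decimals, and the authors scaled TPM to each whole library. The bounds were deposited as a signal on the TPM scale, and the file does not name their interval level. Per the labels, reads were assigned with mm10 and GENCODE M21. Programs and versions were not given in the sources used here. Nor was the use of strand in counting, so members that overlap an antisense gene are uncertain.

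Members had a mean of at least 50 estimated counts. Spike-ins were left out. Shares and ratios were computed with Python 3.11.15, pandas 2.3.3 and numpy 2.4.6, on tpm, with 0.1 added before log2. Structures were compared exon by exon with the coding transcript of highest mean tpm, using the GENCODE M21 annotation, which matched all 1706 members. Stretches of 31 bases shared with other genes were counted on the sense strand. Counts were rounded for edgeR 4.0.16 and DESeq2 1.42.0 (R 4.3.3), used for scaling factors only. With 1 group of 2 libraries no test was run, and an SD of 2 values is imprecise. The scripts were tested on simulated data.

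Named genes were the 15 with the largest share, the 15 with the highest NMD level among genes at 50% in both tables, the 10 highest members, the 5 with the largest difference between tables, the 5 largest within-gene differences in each direction, the 5 transcripts on each side of the count minimum and member genes of the 16 gene lists, by default the 4 highest shares of a list; the other genes named were chosen after their values were seen. Some genes that this rule names are not reported here. Members and lists were chosen with earlier results of these data known. Of the lists not described in the report, translation factors had 7 member genes of 70 (median share 15.9%) and translation termination 1 of 6 (16.5%). Stress-related NMD targets had 1 of 17 (45.0%) and heat shock genes 1 of 10 (1.25%). In these 4 lists 14, 2, 1 and 2 genes have an annotated NMD transcript.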

Additional observations from a re-analysis of the deposited data

How the results depend on the processing

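Counts of members and genes followed the count minimum. At a mean of 20, 100 or 200 estimated counts there were 2623, 1043 or 620 members, 2097, 935 or 571 genes, 649, 117 or 45 members at 2-fold, and median shares of 17.3%, 28.7% or 35.1%. The median share was 22.4% with members and shares taken from the alignment-based table, 15.4% on estimated counts, 17.5% of all transcripts of the gene, 20.3% for member transcripts alone and 19.1% in genes at 10 tpm or more. Leaving out either replicate gave 22.9% to 23.2%, 1658 to 1701 members, 1420 to 1463 genes and 254 to 267 genes at a share of 50%. Genes at that share numbered 161 on estimated counts, 124 over all transcripts, 136 in both tables, 563 at a limit of 25% and 67 at 75%. The median ratio between animals was -0.015 with TMM factors and -0.070 with DESeq2 size factors over all transcripts above 0, but these factors were 1.02 and 0.981, and 1 and 1, for libraries of about 41832100 and 35437600 estimated counts. These values are therefore of counts with little or no depth correction, and their sign is not used. The count at 2-fold was 84 with 1 added to tpm. Chosen after the data were seen, scaling factors over transcripts at the count minimum gave 0.07 and 0.06, members with no 31-base stretch in another gene gave 123 genes at a share of 50%, and members with at least 100 bases of their own gave 17.3%, 64 genes at a share of 50%, a median ratio of 0.25 and 78 members at 2-fold. The within-gene difference stayed between 0.06 and 0.18 under all alternatives run. No paired analysis was possible because there is 1 group. The annotated transcripts limit every share: a transcript that the annotation lacks cannot be counted, and 2 animals limit the precision.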
